A study of Mus musculus with 23 samples.

Results

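Acute-phase genes encode secreted or membrane proteins whose production rises sharply in inflammation, and 10 of them were followed through mouse hearts: Saa3, Saa1, Saa2, Lcn2, Hp, Orm1, Lrg1, Serpina3n, Serpina3m and Steap4. The members were found by matching the Ensembl identifiers of the quantification to mouse gene symbols, and all 10 were present among 55487 identifiers. Whole hearts of wild-type C57BL/6J females, 10 weeks old, gave 23 libraries of poly-A RNA. One arm received isoproterenol (ISO, 300 mg/kg), an agonist of beta-adrenergic receptors that drives heart rate and contraction, and the other received lipopolysaccharide (LPS, 2.5 mg/kg), the bacterial outer-membrane glycolipid sensed by Toll-like receptor 4. Each arm had untreated baseline hearts and hearts taken 1 and 7 days after the agent, with 3 libraries at ISO day 1 and 4 in each of the other 5 groups. Strain, sex and age were shared by all groups, and the baseline mice had no treatment, so the effect of giving any substance cannot be told apart from that of the agent. Each library is a separate mouse by the study's design, so the p-values cover animal and library variation jointly. The libraries held 20910394 to 30368985 reads assigned to genes. Markers of cardiomyocytes summed to 32490 to 61420 TPM (a level already divided by transcript length and scaled to the same total in each library) in the 23 libraries, so markers of heart muscle were high in every library.

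The acute-phase response is classically a programme of the liver, in which interleukin-6 acting through STAT3, and interleukin-1 and tumour necrosis factor acting through NF-kB, together with C/EBP factors, switch on genes for plasma proteins. Many of the same genes can be expressed outside the liver in inflamed tissue, by macrophages, fat cells, fibroblasts, endothelium or muscle. Their products bind lipids (serum amyloids), withhold iron and haem (lipocalin 2, haptoglobin), inhibit proteases (the Serpina3 serpins), carry small molecules (orosomucoid) or modulate growth factor signalling (Lrg1), and Steap4 is a membrane metalloreductase for iron and copper.

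In GRCm38, the assembly of mm10, with GENCODE M21 annotation, all members are protein-coding. The 3 serum amyloid genes lie together on chromosome 7: Saa3 (ENSMUSG00000040026) at 46711998 to 46715700 on the minus strand, Saa1 (ENSMUSG00000074115) at 46740497 to 46742980 on the minus strand and Saa2 (ENSMUSG00000057465) at 46751790 to 46754313 on the plus strand. The 2 serpins lie on the plus strand of chromosome 12, Serpina3m (ENSMUSG00000079012) at 104338486 to 104394257 and Serpina3n (ENSMUSG00000021091) at 104406729 to 104414329. Serpina3m overlaps Serpina3k and the pseudogene Serpina3l-ps on the same strand, and the other 9 members overlap no annotated gene. The remaining members are scattered. On the minus strand are Lcn2 (ENSMUSG00000026822, chromosome 2 from 32384633 to 32388252), Hp (ENSMUSG00000031722, chromosome 8 from 109575128 to 109579172) and Lrg1 (ENSMUSG00000037095, chromosome 17 from 56119678 to 56122001). On the plus strand are Orm1 (ENSMUSG00000039196, chromosome 4 from 63344560 to 63348163) and Steap4 (ENSMUSG00000012428, chromosome 5 from 7960457 to 7982213).

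Several members have close copies, which limits how surely reads can be assigned. Of all 31-base windows in the transcripts of Saa1, 46.8% were also found in another gene, nearly all in Saa2. The share was 44.5% for Saa2, 35% for Serpina3m, 27.5% for Orm1 (shared with Orm2) and 21.6% for Serpina3n. It was 7.56% for Saa3, 0.254% for Hp and 0 for Lcn2, Lrg1 and Steap4, so the levels of these last 5 genes depend little or not at all on how shared reads were divided.

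Promoters of 7 members were found in the RefSeq table (GRCm38.p6, 250 bases before to 50 after each start), namely Saa3, Saa1, Saa2, Lcn2, Lrg1, Serpina3n and Steap4. They are shown for the serum amyloid genes, because the levels of these neighbours lay very far apart on day 1 of LPS. Those of Lcn2, Serpina3n and Steap4 are shown for a steep, an intermediate and the smallest increase among the tested members. Each is printed 5′ to 3′ on the strand of its gene, and capitals mark matches to 3 motifs searched on both strands. The serum amyloid promoters lie at chr7:46715627-46715926 (Saa3, minus), chr7:46742931-46743230 (Saa1, minus) and chr7:46751583-46751882 (Saa2, plus).
Saa3: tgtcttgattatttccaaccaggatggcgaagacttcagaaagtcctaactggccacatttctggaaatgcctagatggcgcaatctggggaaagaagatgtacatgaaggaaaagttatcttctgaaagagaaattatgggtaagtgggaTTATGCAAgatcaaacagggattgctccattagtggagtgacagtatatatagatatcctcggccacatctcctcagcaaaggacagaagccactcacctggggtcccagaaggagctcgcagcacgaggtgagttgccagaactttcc
Saa1: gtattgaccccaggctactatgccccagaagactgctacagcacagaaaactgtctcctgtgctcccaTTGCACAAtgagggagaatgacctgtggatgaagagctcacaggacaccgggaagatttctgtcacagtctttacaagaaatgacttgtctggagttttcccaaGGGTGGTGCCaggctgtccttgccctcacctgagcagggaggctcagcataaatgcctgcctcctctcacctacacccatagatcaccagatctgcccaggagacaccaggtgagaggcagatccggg
Saa2: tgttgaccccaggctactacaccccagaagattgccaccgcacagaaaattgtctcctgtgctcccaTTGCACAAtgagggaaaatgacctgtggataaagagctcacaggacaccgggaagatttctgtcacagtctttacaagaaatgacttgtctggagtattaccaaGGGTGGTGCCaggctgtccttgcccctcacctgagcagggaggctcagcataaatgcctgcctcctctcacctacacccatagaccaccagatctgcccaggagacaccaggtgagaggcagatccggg
The promoters of Lcn2 (chr2:32387690-32387989, minus), Serpina3n (chr12:104406458-104406757, plus) and Steap4 (chr5:7960222-7960521, plus) read as follows.
Lcn2: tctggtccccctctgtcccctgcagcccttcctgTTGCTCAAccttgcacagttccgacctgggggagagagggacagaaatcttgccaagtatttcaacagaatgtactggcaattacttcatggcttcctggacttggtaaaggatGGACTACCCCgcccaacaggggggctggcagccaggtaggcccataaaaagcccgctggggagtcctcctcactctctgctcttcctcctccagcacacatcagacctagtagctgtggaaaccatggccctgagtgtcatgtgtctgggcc
Serpina3n: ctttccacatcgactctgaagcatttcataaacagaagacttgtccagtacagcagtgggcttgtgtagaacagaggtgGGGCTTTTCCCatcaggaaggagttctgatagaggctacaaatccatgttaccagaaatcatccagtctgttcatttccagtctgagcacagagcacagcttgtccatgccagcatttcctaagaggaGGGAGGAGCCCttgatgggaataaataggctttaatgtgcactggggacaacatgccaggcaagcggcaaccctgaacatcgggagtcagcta
Steap4: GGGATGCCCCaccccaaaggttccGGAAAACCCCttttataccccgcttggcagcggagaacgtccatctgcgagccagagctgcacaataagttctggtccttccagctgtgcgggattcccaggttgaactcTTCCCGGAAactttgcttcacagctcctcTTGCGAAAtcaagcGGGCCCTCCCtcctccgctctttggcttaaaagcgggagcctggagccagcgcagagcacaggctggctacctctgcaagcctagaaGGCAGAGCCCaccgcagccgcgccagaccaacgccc

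The C/EBP motif TTGCNNAA was found in 5 of the 7 promoters and in 10.8% of the 32851 promoters in the table. In Saa3 it reads TTATGCAA at -99 to -92 from the start site, in Saa1 TTGCACAA at -182 to -175, in Lcn2 TTGCTCAA at -216 to -209 and in Steap4 TTGCGAAA at -87 to -80. The NF-kB motif, GGG and CC with any 5 bases between them, was found in 6 of 7, all but Saa3, and in 50.8% of all promoters, so a match to it is common. It reads GGGTGGTGCC in both Saa1 and Saa2 and GGACTACCCC at -102 to -93 in Lcn2. The 4 matches in Serpina3n are 2 pairs that overlap by all but 1 base, one running from -171 to -161 and the other from -43 to -33. The STAT motif TTCNNNGAA was found in 1 of 7, as TTCCCGGAA at -116 to -108 in Steap4, and in 8.3% of all promoters. A match is a description of these letters and was not tied to the levels by any test. The Saa1 and Saa2 promoters were identical in 95.3% of 301 aligned columns, and those of Saa1 and Saa3 in 54.2% of 354.

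The summed level of the 10 members rose on day 1 in both arms and was back near the untreated level by day 7. The sum was 46.0 ± 2.83 TPM (SD, n = 4) at ISO baseline, 522 ± 20.9 TPM (SD, n = 3) at ISO day 1 and 48.7 ± 4.64 TPM (SD, n = 4) at ISO day 7. In the LPS arm it was 58.3 ± 4.20 TPM at baseline, 6830 ± 956 TPM at day 1 and 58.5 ± 4.27 TPM at day 7 (SD, n = 4 each). These sums amount to 0.0046% of all TPM at ISO baseline and 0.0522% at ISO day 1, and to 0.00583% at LPS baseline and 0.683% at LPS day 1.

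**Figure D1:**
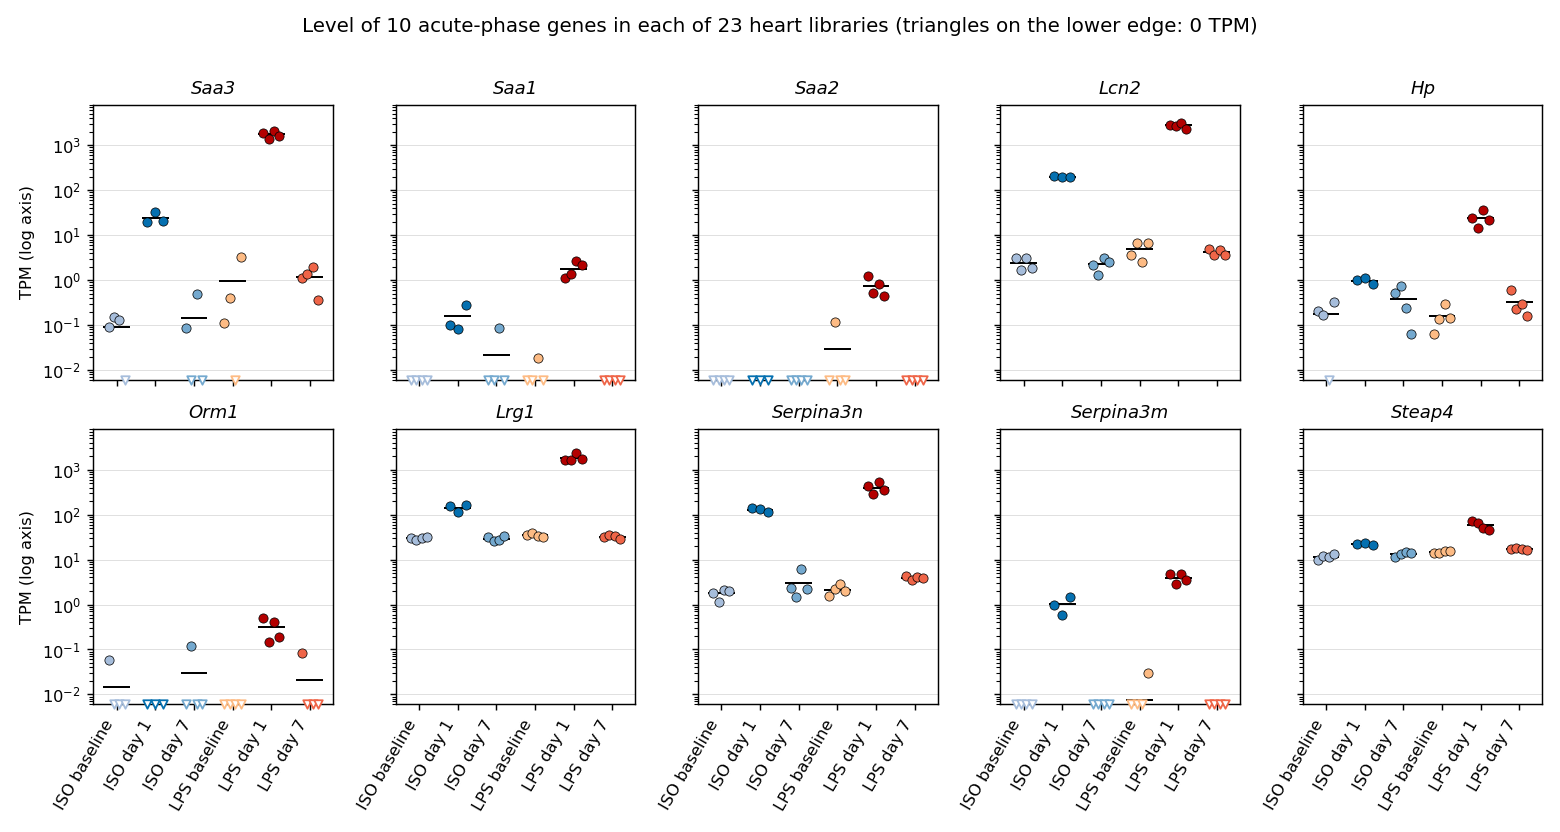
Level of each of the 10 genes in every library, in TPM on a log axis shared by all panels; each point is 1 heart, horizontal bars are group means, and triangles on the lower edge are libraries at 0 TPM. In all 10 panels the 4 LPS day 1 hearts lie above every other heart, and in 7 panels the 3 ISO day 1 hearts come next, above all remaining groups; Saa1 overlaps there, and Saa2 and Orm1 are at 0 at ISO day 1.

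The test was edgeR's quasi-likelihood test on estimated counts, adjusted by Benjamini-Hochberg over the 15732 genes with enough reads. Of the 10 members, 8 had enough reads to be tested. Saa3, Saa1, Hp and Serpina3m reached that minimum through their day 1 libraries, so counts over the tested members only describe them. Listed genes with few baseline reads were likewise tested because of treated hearts, so counts over lists that hold such genes are descriptions too. At ISO day 1 all 8 tested members were higher than at ISO baseline, where 65.7% of all genes were called in either direction and 32.9% higher. At LPS day 1 the same 8 members were higher than at LPS baseline, where 66.2% of all genes were called and 33.2% higher. With calls this widespread the count says little about the members, and the size of each change is given instead. The log2 changes ran from 0.89 to 8.19 after ISO and from 2.03 to 10.93 after LPS, while the median of all genes was -0.01 and 0.00. The 8.19 is that of Serpina3m, which had 0 reads at ISO baseline, so its size depends on the prior count. The reads bound that change only as at least 45.1-fold.

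**Figure D2:**
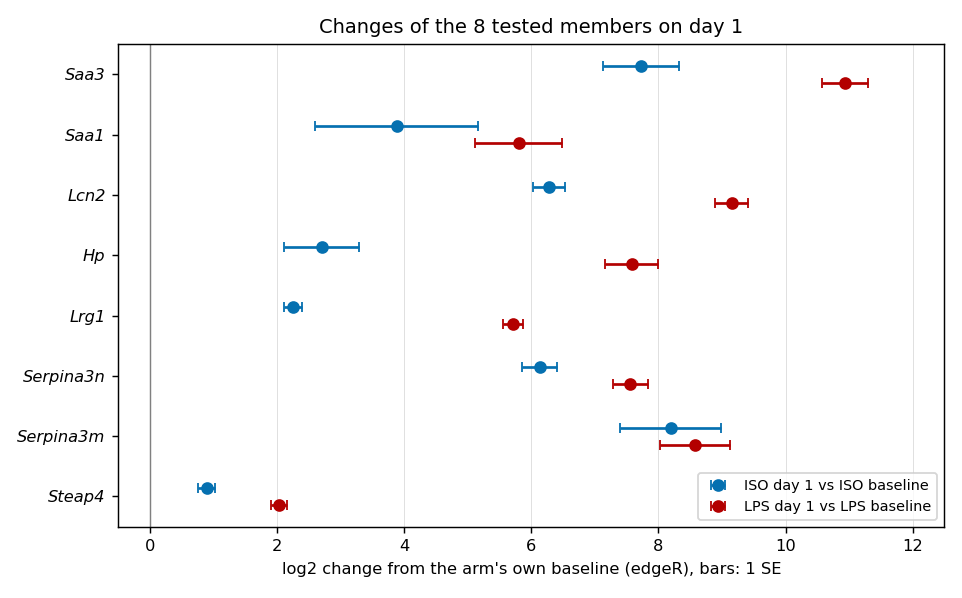
Log2 change from each arm's own baseline at day 1 for the 8 tested members, as fitted by edgeR, with bars of 1 standard error. Every point lies to the right of 0 and, for each gene, the LPS point lies to the right of the ISO point; the standard errors of Saa1 and Serpina3m are wide because their baselines hold 0 or 1 read.

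Markers of other cell types were read beside these changes. The 13 neutrophil markers summed to 0.774 TPM (0.605 to 1.06) at ISO baseline and 18.0 TPM (9.84 to 23.4) at ISO day 1, and to 1.16 TPM (0.986 to 1.33) at LPS baseline and 30.4 TPM (21.9 to 36.1) at LPS day 1. Of the 9 that could be tested, 6 were higher at ISO day 1 (32.9% of all genes were) and 9 at LPS day 1 (33.2%). All of the 9 but Csf3r and Mmp9 held at most 8 reads over a baseline group, too few for the filter. They were tested because of their day 1 hearts, so these counts only describe them. S100a9 was at 5.90 and 5.71 on the log2 scale, while Elane, the elastase of neutrophil precursors, was at 0 at ISO day 1. Lcn2, Lrg1 and Hp are also made by neutrophils, whose markers thus moved with them, and their part in the results was not tested.

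The 13 hepatocyte markers summed to 2.78 TPM (2.05 to 3.26) at ISO baseline, 8.09 TPM (7.01 to 10.1) at ISO day 1, 2.46 TPM (2.15 to 2.89) at LPS baseline and 4.09 TPM (3.05 to 5.47) at LPS day 1. At day 1 most of the sum came from Ahsg, fetuin A, at 5.62 TPM after ISO and 3.09 TPM after LPS, from baselines of 1.15 and 0.995 TPM. Ttr, transthyretin, rose from 0.169 to 1.34 TPM at ISO day 1 and stood at 0.223 and 0.217 TPM at LPS baseline and day 1. Other markers of the list, named outside the naming rule because of their low levels, were nearly absent. Alb, albumin, the most abundant transcript of liver, averaged at most 0.0525 TPM in any group, and Serpina1a, Serpina1c and Cyp3a11 were at 0 in both day 1 groups. Adipocyte markers averaged 1.25 to 4.41 TPM over the 6 groups and were lowest at LPS day 1. The 9 markers of monocytes and macrophages summed to 118 TPM (106 to 126) at ISO baseline and 76.4 TPM (72.0 to 81.9) at ISO day 1, and to 127 TPM (114 to 142) at LPS baseline and 44.9 TPM (40.6 to 53.1) at LPS day 1. Not every marker fell, by names chosen after their values were seen. From baseline to ISO day 1 the means of Ly6c2, Mrc1 and Cd68 (5.78 to 8.71 TPM) rose. From baseline to LPS day 1 those of Ly6c2 (0.592 to 3.86 TPM) and Fcgr1 (0.745 to 2.0 TPM) rose. The means of the other markers fell in each comparison. The 8 cardiomyocyte markers summed to 50980 TPM at ISO baseline, 37890 TPM at ISO day 1, 49580 TPM at LPS baseline and 33980 TPM at LPS day 1. In whole-heart RNA, fewer cells of a type and less RNA per cell cannot be told apart.

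**Figure D3:**
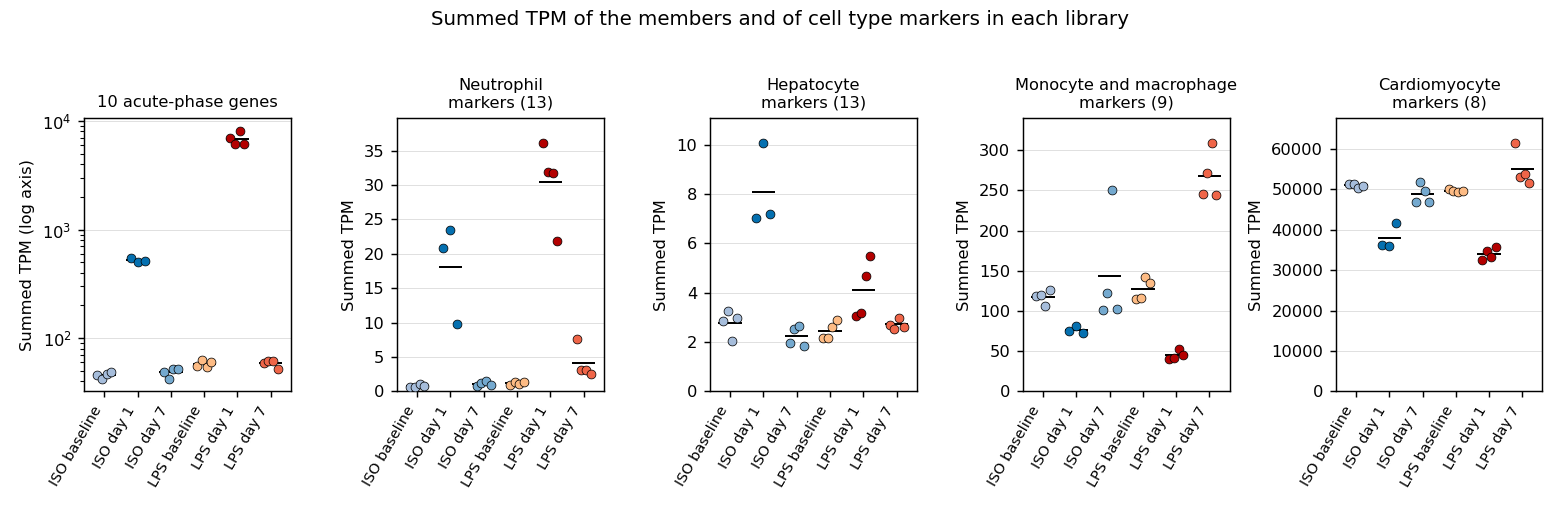
Summed TPM in each library of the 10 acute-phase genes (log axis) and of markers of neutrophils, hepatocytes, monocytes and macrophages, and cardiomyocytes (linear axes); points are hearts and bars are group means. The acute-phase sum and the neutrophil sum are both highest in the day 1 groups, the hepatocyte sum stays at or under 10.1 TPM, and the sum for monocytes and macrophages is lowest at LPS day 1, between 40.6 and 53.1 TPM.

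Saa3 is the serum amyloid expressed mainly outside the liver, in macrophages, fat and inflamed epithelium. Its level was 0.09, 0.149, 0.129 and 0 TPM in the ISO baseline hearts and 20.02, 32.7 and 20.9 TPM at ISO day 1. In the LPS arm it was 0.111, 0.403, 0 and 3.26 TPM at baseline and 1891, 1392, 2097 and 1645 TPM at day 1. Baseline and day 1 hearts did not overlap within either arm. The untreated heart with 3.26 TPM, LPS baseline replicate 4, held 30 of the 35 Saa3 reads of its group. The log2 change was 7.72 after ISO (SE 0.60, adjusted p = 1.77e-10) and 10.93 after LPS (SE 0.36, adjusted p = 8e-17). These SEs are derived from the test statistic and can understate the uncertainty where, as here, a baseline holds few reads. In reads per total, 729 against 4 gave a ratio of 237 for ISO (95% exact counting interval 92.3 to 873), and 66717 against 35 gave 1951 for LPS (1402 to 2801), intervals that cover counting error only. By rank of mean level, Saa3 went from 12099 of 24075 genes above 0 TPM at LPS baseline to 46 of 24429 at LPS day 1.

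Saa1 and Saa2 are the serum amyloids that liver releases onto high-density lipoprotein, and in the heart both stayed near the detection limit. Saa1 had 1, 1 and 3 reads in the ISO day 1 hearts and 0 in all 4 at ISO baseline. At LPS day 1 it had 13, 15, 24 and 28 reads (1.13, 1.34, 2.63 and 2.13 TPM), and the LPS baseline hearts together had 1 read. With 80 reads against 1 the LPS ratio was 81.9 (95% exact interval 14.3 to 3273), and with 5 against 0 the ISO level was at least 2.17-fold higher, taking 3 reads over the group as the floor. The fitted log2 change was 5.80 after LPS (SE 0.69, adjusted p = 1.08e-06) and 3.88 after ISO (SE 1.28, adjusted p = 0.0135), and the ISO call was lost without ISO day 1 replicate 3 (3.17, adjusted p = 0.062). Its size depends on the prior count, since the baselines are empty or nearly so.

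Saa2 was seen in the LPS arm, with 1 read over the 4 baseline hearts and 14, 6, 10 and 6 reads at day 1 (1.22, 0.519, 0.822 and 0.448 TPM). All 4 day 1 hearts were above every other library. The ratio of 36 reads to 1 was 36.8 (95% exact interval 6.20 to 1495), and against the 0 reads at ISO day 1 the level was at least 9.28-fold higher. Saa2 had too few reads for the filter, and in the fit without that filter its log2 change at LPS day 1 was 4.65 (SE 1.01, adjusted p = 0.000254). At LPS day 1 Saa3 thus stood at 1756 ± 305 TPM, Saa1 at 1.81 ± 0.697 TPM and Saa2 at 0.752 ± 0.350 TPM (SD, n = 4 each), and reads shared between Saa1 and Saa2 make the division between these last 2 uncertain.

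Lcn2, lipocalin 2, binds bacterial siderophores and so withholds iron from microbes. It stood at 3.11, 1.68, 3.12 and 1.89 TPM at ISO baseline and at 205, 199 and 199 TPM at ISO day 1. In the LPS arm the baseline hearts had 3.61, 6.86, 2.56 and 6.88 TPM, and the day 1 hearts had 2827, 2746, 3137 and 2337 TPM. No day 1 heart came near its baseline, and the 3 ISO day 1 hearts were closely alike (201 ± 3.96 TPM, SD, n = 3). The log2 change was 6.28 after ISO (SE 0.25, adjusted p = 6.86e-15) and 9.15 after LPS (SE 0.26, adjusted p = 6.54e-18). Lcn2 was the most abundant member in both day 1 groups, at rank 35 of all genes at LPS day 1 and 423 of 23606 at ISO day 1, from rank 7646 at LPS baseline and 9712 of 24274 at ISO baseline.

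Hp, haptoglobin, captures free haemoglobin. It was scarce in untreated hearts, at 0.209, 0.169, 0 and 0.322 TPM at ISO baseline and 0.063, 0.135, 0.294 and 0.144 TPM at LPS baseline. At day 1 it reached 1.01, 1.09 and 0.823 TPM after ISO and 24.5, 14.1, 36.7 and 21.5 TPM after LPS. Day 1 and baseline hearts did not overlap in either arm, and the response to LPS was much the larger. On the log2 scale Hp rose by 2.70 after ISO (SE 0.59, adjusted p = 0.000373) and by 7.58 after LPS (SE 0.42, adjusted p = 5.11e-13). Haemoglobin genes did not rise beside it: Hba-a1 was at -1.26 after ISO and at -0.75 after LPS, the latter not past the threshold (adjusted p = 0.145).

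Orm1, orosomucoid 1, is a plasma carrier of basic and lipid-soluble molecules. It had 1 read over the 4 ISO baseline hearts together, 0 at ISO day 1 and 0 at LPS baseline. At LPS day 1 the 4 hearts had 8, 2, 5 and 3 reads (0.514, 0.149, 0.4 and 0.185 TPM), each above every other library of the study in TPM. In reads the lowest of them tied with ISO day 7 replicate 2, which also had 2 (0.121 TPM). With 18 reads at LPS day 1 against 0 at LPS baseline the level was at least 6.14-fold higher, with the same floor. Orm1 did not pass the filter on low counts, and without the filter its log2 change was 5.25 (SE 1.35, adjusted p = 0.00146).

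Lrg1, a secreted leucine-rich glycoprotein that modulates TGF-beta signalling in endothelium, was the most abundant member in untreated hearts. It stood at 30.8, 27.3, 30.1 and 31.3 TPM at ISO baseline and 157, 113 and 162 TPM at ISO day 1. The LPS baseline hearts had 35.8, 39.7, 33.4 and 32.0 TPM and the LPS day 1 hearts 1671, 1599, 2294 and 1732 TPM. Day 1 and baseline hearts lay far apart, and the lowest LPS day 1 heart stood well above the highest ISO day 1 heart. On the log2 scale Lrg1 rose by 2.25 after ISO (SE 0.14, adjusted p = 5.93e-12) and by 5.71 after LPS (SE 0.16, adjusted p = 4.66e-18). Lrg1 moved from rank 1832 to rank 43 of all genes in the LPS arm and from 2092 to 559 in the ISO arm.

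Serpina3n, the mouse serpin most often equated with human antichymotrypsin, inhibits serine proteases of leukocytes. Its level was 1.79, 1.15, 2.13 and 1.98 TPM at ISO baseline and 138, 135 and 112 TPM at ISO day 1. In the LPS arm it was 1.57, 2.20, 2.79 and 2.05 TPM at baseline and 430, 295, 522 and 347 TPM at day 1. Day 1 and baseline hearts lay far apart in both arms. The ISO day 1 hearts came closer to the LPS day 1 hearts than for Lcn2, Lrg1 or Saa3, with LPS day 1 at 3.10 times ISO day 1 by mean TPM. Serpina3n rose by 6.13 after ISO (SE 0.28, adjusted p = 3.05e-14) and by 7.56 after LPS (SE 0.28, adjusted p = 5.1e-16) on the log2 scale.

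Serpina3m is a neighbouring serpin of the same cluster. It had 0 TPM in all 4 ISO baseline hearts and 0.998, 0.579 and 1.45 TPM at ISO day 1. It had 0, 0, 0 and 0.03 TPM at LPS baseline and 4.77, 2.93, 4.74 and 3.50 TPM at LPS day 1. All but 1 of its reads came from day 1 hearts, with 104 at ISO day 1 (at least 45.1-fold higher, with 3 reads over the baseline group as the floor) and 554 against 1 in the LPS arm (ratio 567, 95% exact interval 101 to 22430). The log2 change was 8.19 after ISO (SE 0.80, adjusted p = 5.39e-07) and 8.58 after LPS (SE 0.55, adjusted p = 5.31e-09). With its reads summed with those of the other Serpina3 serpins except Serpina3n, the ISO change was 3.18 (adjusted p = 1.47e-06) and the LPS change 7.38 (adjusted p = 7.48e-15).

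Of the other 9 serpins of that cluster 5 could be tested. Each of the 5 held at most 14 reads over a baseline group, too few for the filter. They were tested because of their treated hearts, so the counts below only describe them. All 5 were higher at LPS day 1 (33.2% of all genes were), with Serpina3f at 8.33 (SE 0.45), Serpina3g at 7.13 (SE 0.47), Serpina3i at 6.52 (SE 0.60), Serpina3c at 4.44 (SE 0.47) and Serpina3h at 4.09 (SE 0.67) on the log2 scale. At ISO day 1, 3 of the 5 were higher: Serpina3f at 3.18, Serpina3i at 3.14 and Serpina3g at 2.15 (32.9% of all genes were higher). Serpina3h, at 1.27 (adjusted p = 0.295), and Serpina3c, at 0.86 (adjusted p = 0.225), did not pass the test there. Per length, Serpina3f (22.7 TPM) and Serpina3g (15.6 TPM) exceeded Serpina3m (3.98 TPM) at LPS day 1, while at ISO day 1 they stood at 0.349 and 0.321 TPM against 1.01 TPM for Serpina3m. Serpina3a and Serpina3j were at 0 in all groups.

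Steap4 reduces iron and copper for uptake and is known as an inflammation-induced gene of fat. It was readily detected in untreated hearts, at 9.68, 11.9, 11.4 and 13.6 TPM at ISO baseline and 14.2, 13.9, 15.3 and 15.9 TPM at LPS baseline. At day 1 it stood at 22.6, 23.5 and 20.9 TPM after ISO and at 73.8, 63.5, 51.1 and 44.4 TPM after LPS. Its log2 changes were the smallest of the 8 tested members, without overlap between day 1 and baseline hearts of an arm. The log2 change was 0.89 after ISO (SE 0.14, adjusted p = 5.92e-06) and 2.03 after LPS (SE 0.13, adjusted p = 5.31e-12). The family did not move as one: Steap3, the endosomal reductase of red cell precursors, fell by 2.07 after ISO and by 1.43 after LPS, and Steap2 rose by 1.49 after LPS (SE 0.30, adjusted p = 0.000136).

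Because the members rose by such different factors, the make-up of the group changed on day 1. Lrg1 and Steap4 gave 64.9% and 25.3% of the summed TPM at ISO baseline, and 60.5% and 25.5% at LPS baseline. At ISO day 1 the sum was made of Lcn2 (38.5%), Lrg1 (27.5%), Serpina3n (24.6%), Saa3 (4.73%) and Steap4 (4.29%). At LPS day 1 it was made of Lcn2 (40.6%), Lrg1 (26.7%), Saa3 (25.7%), Serpina3n (5.77%) and Steap4 (0.864%). Serpina3n thus held a larger share after ISO and Saa3 after LPS, while the shares of Lcn2 and Lrg1 were close in both. At day 7 Lrg1 was again the largest part, at 60.5% in the ISO arm and 54.3% in the LPS arm.

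**Figure D4:**
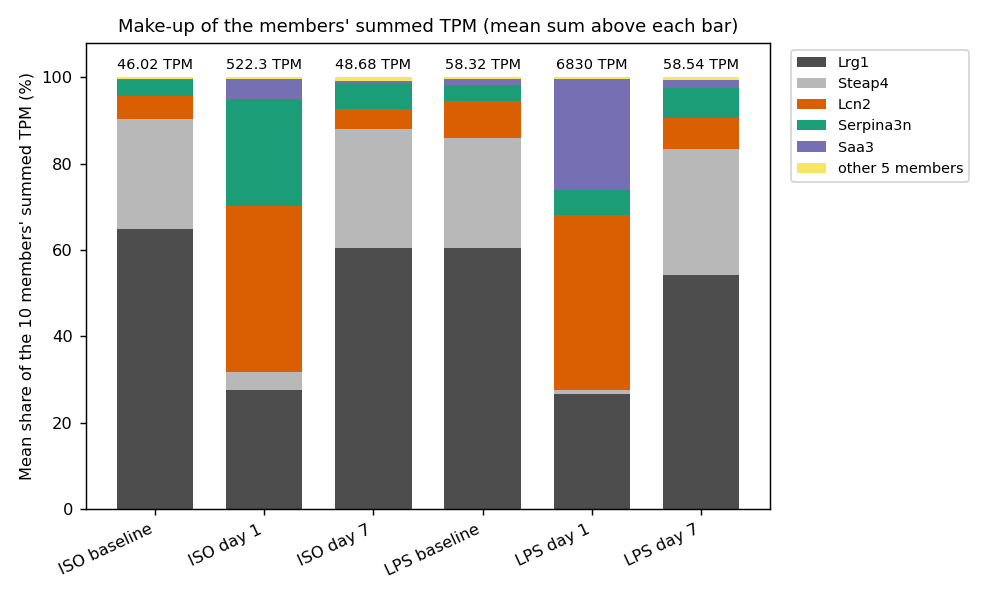
Mean share of the 10 members' summed TPM taken by Lrg1, Steap4, Lcn2, Serpina3n, Saa3 and the other 5 members in each group, with the mean sum in TPM printed above each bar. Lrg1 and Steap4 fill most of the bar in untreated and day 7 hearts; Lcn2 is the largest part of both day 1 bars, followed by Lrg1, with Serpina3n next at ISO day 1 and Saa3 next at LPS day 1.

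The order of levels within a day 1 group was read from the ranges of the hearts. At ISO day 1 Lcn2 stood alone at the top, Lrg1 and Serpina3n overlapped below it, Saa3 and Steap4 overlapped next, then Serpina3m and Hp, and Saa1 was lowest of those detected. At LPS day 1 Lcn2 led again, Lrg1 and Saa3 overlapped, and Serpina3n, Steap4, Hp and Serpina3m followed, each clear of the next. Saa1, Saa2 and Orm1 were lowest there, each overlapping its neighbour in the order.

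Whether the 2 agents differed was tested as the LPS change minus the ISO change, each from its own baseline. Of the 8 tested members 5 had the larger change after LPS and 0 after ISO, where 37.6% of all genes were called, 18.2% higher and 19.5% lower. The differences on the log2 scale were 4.88 for Hp (SE 1.03, adjusted p = 0.000654), 3.46 for Lrg1 (SE 0.20, adjusted p = 5.03e-12), 2.87 for Lcn2 (SE 0.35, adjusted p = 1.09e-06), 1.43 for Serpina3n (SE 0.37, adjusted p = 0.00388) and 1.14 for Steap4 (SE 0.19, adjusted p = 5.13e-05). The tests for Saa3 (3.21, SE 2.17, adjusted p = 0.262), Saa1 (1.92, SE 4.58, adjusted p = 0.79) and Serpina3m (0.39, SE 0.63, adjusted p = 0.664) missed the threshold, and all 3 rest on baselines with few or no reads.

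For Saa3 the missed call turned on 1 untreated heart: without LPS baseline replicate 4 the difference was 5.53 (adjusted p = 0.0169). It also passed on log2(TPM + 0.1) with limma (4.91, adjusted p = 0.00154). A comparison of the treated groups without their baselines, added after the data were seen, gave the higher level after LPS for all 8 tested members. Saa3 was higher by 6.15 (adjusted p = 6.32e-14), Saa1 by 3.51 (adjusted p = 8.4e-05) and Serpina3m by 1.98 (adjusted p = 0.000127). By mean TPM, LPS day 1 exceeded ISO day 1 by 71.5-fold for Saa3, 24.8-fold for Hp, 13.8-fold for Lcn2, 12.7-fold for Lrg1, 11.6-fold for Saa1, 3.94-fold for Serpina3m, 3.10-fold for Serpina3n and 2.60-fold for Steap4. The baselines of the arms share no hearts, and 0 members were called between them in edgeR and 0 in DESeq2 (1.21% of all genes in edgeR). Lcn2, Saa3 and Steap4 had an unadjusted p under 0.05 there, with log2 differences of 0.91 (SE 0.28, adjusted p = 0.135), 2.94 (SE 1.19, adjusted p = 0.328) and 0.31 (SE 0.13, adjusted p = 0.361), LPS arm higher.

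By day 7 after ISO, 0 of the 8 tested members were called against baseline in edgeR and 0 in DESeq2 (0.00636% of all genes in edgeR), and 1, Serpina3n, had an unadjusted p under 0.05. Serpina3n stood at 2.33, 1.44, 6.18 and 2.26 TPM (log2 change 0.70, SE 0.28, adjusted p = 0.852), with 3 of the 4 hearts above the highest baseline heart (2.13 TPM) and replicate 3 the farthest. The same heart, ISO day 7 replicate 3, had Saa3 at 0.482 TPM against 0.086, 0 and 0 TPM in the others, and its monocyte and macrophage markers summed to 251 TPM against 101 TPM in the lowest of its group. Lcn2 was at 2.17, 1.28, 3.06 and 2.49 TPM (log2 change -0.21, SE 0.31), Lrg1 at 32.0, 25.5, 27.2 and 32.9 TPM (-0.05, SE 0.13) and Steap4 at 11.7, 13.03, 14.8 and 14.1 TPM (0.16, SE 0.13), all overlapping baseline. Hp was at 0.509, 0.743, 0.239 and 0.063 TPM, with 2 hearts above the highest baseline heart (0.322 TPM) and 2 inside the baseline range (log2 change 1.19, SE 0.67, adjusted p = 0.935). Serpina3m and Saa2 had 0 reads, Saa1 1 read and Orm1 2 reads over the group.

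By day 7 after LPS, 0 of the 8 were called in edgeR and 0 in DESeq2 (9.10% of all genes in edgeR), and 2, Lrg1 and Serpina3n, had an unadjusted p under 0.05. Serpina3n stood at 4.28, 3.55, 4.14 and 3.92 TPM, and each of these hearts exceeded the 1.57 to 2.79 TPM of the LPS baseline. Its log2 change was 0.68 (SE 0.27, adjusted p = 0.129), and the adjusted p ran from 0.00458 to 0.301 over the alternatives. It was under the threshold with the 2 groups fitted alone (0.00458), without ISO day 7 replicate 3 (0.017), without the filter (0.0448) and on log2(TPM + 0.1) (0.0463). On that last scale the median of all genes was itself 0.20, so the TPM levels and that call include a shift of the scale. Lrg1, at 31.1, 34.5, 33.2 and 28.4 TPM, overlapped its baseline (log2 change -0.36, SE 0.13, adjusted p = 0.102), with the call made when the groups were fitted alone (-0.35, adjusted p = 0.0111) and without ISO day 1 replicate 2 (adjusted p = 0.0465).

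Lcn2 was at 4.91, 3.64, 4.78 and 3.58 TPM (log2 change -0.44, SE 0.27, adjusted p = 0.335), inside the range of LPS baseline. Hp was at 0.594, 0.230, 0.299 and 0.162 TPM (1.16, SE 0.75, adjusted p = 0.38). Saa3 was at 1.098, 1.39, 1.92 and 0.368 TPM, above 3 of the 4 baseline hearts in 3 of the 4 day 7 hearts but under the 3.26 TPM of LPS baseline replicate 4 in all. Its log2 change was 0.29 (SE 0.70, adjusted p = 0.857), or 2.61 (adjusted p = 0.0408) without that baseline heart. Steap4, at 16.9, 17.7, 17.4 and 16.0 TPM, lay just above its baseline range of 13.9 to 15.9 TPM, yet its log2 change was -0.01 (SE 0.13). The TPM scale itself moved there, since the median of all genes at LPS day 7 was 0.20 on log2(TPM + 0.1) and 0.00 in edgeR. The markers of monocytes and macrophages were higher in 9 of 9 at LPS day 7 (5.96% of all genes were), summing to 268 TPM (245 to 309), and those of neutrophils summed to 4.10 TPM (2.52 to 7.63). Their part in the levels of Saa3 and Serpina3n was not tested.

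From day 1 to day 7 the changes ran the other way. In the ISO arm 7 of the 8 tested members were lower at day 7, where 65.1% of all genes were called and 31.9% lower, with Saa3 at -7.37, Lcn2 at -6.49, Serpina3n at -5.43, Lrg1 at -2.30, Hp at -1.51 and Steap4 at -0.74 on the log2 scale. Serpina3m was at -8.19, a fitted size that depends on the prior count, since it had 0 reads at day 7. Saa1 was at -2.39 (adjusted p = 0.0567), and it passed when ISO day 1 replicate 2 was left out (-2.73, adjusted p = 0.0499) and likewise when ISO day 7 replicate 3 was (-3.87, adjusted p = 0.0229). In the LPS arm all 8 tested were lower at day 7 than at day 1, where 66.4% of all genes were called and 32.5% lower, from -2.04 for Steap4 to -10.64 for Saa3. Between the arms, 0 of the 8 changes from baseline to day 7 differed in edgeR and 0 in DESeq2 (0.458% of all genes in edgeR), and 0 had an unadjusted p under 0.05.

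Of 12 cytokines that induce acute-phase genes 7 could be tested. At ISO day 1, 5 were higher and 1 lower (median log2 change 2.70, against -0.01 for all genes), and at LPS day 1, 6 were higher and 1 lower (2.35, against 0.00). Of all genes 32.9% and 33.2% were called higher and 32.8% and 33.0% lower in these comparisons. Il1a, the 1 not called, was at 2.70 after ISO (SE 1.43, adjusted p = 0.104). Il33, an alarmin of stromal cells, rose by 2.35 after LPS (SE 0.19) and by 0.93 after ISO, and Tnf rose by 3.17 and 2.0. Clcf1, an interleukin-6 family cytokine, rose by 3.56 after ISO and by 1.22 after LPS, a difference of -2.34 (SE 0.47, adjusted p = 0.000424), opposite in sign to that of the 5 members called. Ctf1, cardiotrophin 1, fell by 1.76 after ISO and by 0.44 after LPS.

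Among 16 receptors and adaptors for these signals, all of them tested, 11 were higher and 2 lower at ISO day 1 (median 1.08), and 11 were higher and 2 lower at LPS day 1 (median 1.57), against 32.9% and 33.2% of all genes higher and 32.8% and 33.0% lower. Il6ra, the ligand-binding chain of the interleukin-6 receptor, rose by 2.33 after LPS and by 1.12 after ISO, and Osmr, the oncostatin M receptor, by 2.96 and 2.49. Lbp, the plasma protein that hands LPS to Cd14, rose by 2.54 after LPS and 1.04 after ISO. Cd14, the co-receptor, rose more after ISO (2.74) than after LPS (1.70), a difference of -1.05 (SE 0.23, adjusted p = 0.00111).

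Of 17 transcription factors and feedback genes, all tested, 14 were higher and 1 lower at ISO day 1 (median 1.34), and 15 were higher and 1 lower at LPS day 1 (median 1.75). The shares of all genes called higher were 32.9% and 33.2%, and lower 32.8% and 33.0%. Stat3 rose by 1.80 after ISO (SE 0.07, adjusted p = 9.23e-15) and by 2.11 after LPS (SE 0.07, adjusted p = 1.21e-16). Nfkb2, a subunit of NF-kB, rose by 1.26 after ISO and 0.67 after LPS, and Zc3h12a, an RNase that degrades cytokine messages, by 1.20 and 2.88. Outside the naming rule, and chosen after their values were seen because the C/EBP motif was searched and Nfkbiz is a known co-activator of Lcn2, Cebpd rose by 2.26 after ISO and 3.11 after LPS, and Nfkbiz by 2.54 and 4.54. The difference between agents was 2.0 for Nfkbiz (SE 0.34, adjusted p = 7.53e-05).

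Of 25 other acute-phase genes 14 could be tested. At ISO day 1, 9 were higher and 1 lower (median 1.75), and at LPS day 1, 13 were higher and 1 lower (median 3.56), where 32.9% and 33.2% of all genes were higher and 32.8% and 33.0% lower. The metallothioneins Mt1 and Mt2, which bind zinc and copper, rose about alike with both agents, by 4.34 and 6.45 after ISO and by 4.41 and 6.75 after LPS. Cfb, complement factor B, was the opposite case, at 0.25 after ISO (SE 0.48, adjusted p = 0.668) and 6.94 after LPS (SE 0.27, adjusted p = 1.46e-15), a difference of 6.69 (SE 0.62, adjusted p = 1.52e-08). Cfb was still higher at LPS day 7 (2.54, adjusted p = 2.26e-05), 1 of 4 genes of the list that were higher at that time (5.96% of all genes were), while 0 of the 8 tested members were called. Levels within the list lay far apart. Among genes chosen after their values were seen, Serping1, C3 and Cp averaged 151, 109 and 105 TPM at LPS day 1. Fgg, a fibrinogen chain, had 30 reads there (0.149 to 0.259 TPM) and 0 at LPS baseline, while Fga, Fgb, Apcs and Crp averaged at most 0.0613 TPM in any group.

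Of 10 genes known to fall in liver during the acute phase 5 could be tested. Among them 4 were higher and 1 lower at ISO day 1 (32.9% and 32.8% of all genes), and 2 higher and 1 lower at LPS day 1 (33.2% and 33.0% of all genes), the latter near those shares. Trf, transferrin, was the 1 that fell, by 0.29 after ISO and by 1.74 after LPS. Ahsg rose by 2.23 and 1.63, and Ttr, transthyretin, rose by 2.92 after ISO and stood at -0.03 after LPS (SE 0.65, adjusted p = 0.969). Ttr averaged at most 1.34 TPM in any group.

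Partners and receptors of the members' proteins moved in both directions. Of 21 names 20 were in the files and 16 were tested, and 9 were higher and 2 lower at ISO day 1 and 8 higher and 4 lower at LPS day 1. Among all genes 32.9% and 33.2% were called higher and 32.8% and 33.0% lower. Cd163, the macrophage receptor for haptoglobin bound to haemoglobin, rose by 0.80 after ISO (adjusted p = 0.000461) and fell by 2.09 after LPS (adjusted p = 3.9e-09), a difference of -2.90 (adjusted p = 1.58e-08), while Hp itself rose with both. Hmox1, which breaks down haem, rose by 4.46 and 3.88. Fpr2, a receptor for serum amyloid, rose by 9.49 after LPS and 2.43 after ISO, a difference of 7.06 (SE 1.39, adjusted p = 0.000466), and was still higher at LPS day 7 (5.77). Its LPS baseline was fitted lower than its ISO baseline, by -3.52 (SE 1.27, adjusted p = 0.258). Part of the 7.06 thus lies in the baselines, and the sizes of 9.49 and 5.77 rest on that low LPS baseline.

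Slc22a17, a receptor for lipocalin 2, fell by 0.83 after ISO and by 1.27 after LPS, as Lcn2 rose. Scara5, a ferritin receptor, stood at -0.24 after ISO, not past the threshold, and rose by 1.37 after LPS. Of the TGF-beta receptors that Lrg1 acts through, Eng rose by 0.64 after ISO and fell by 0.20 after LPS, Acvrl1 rose by 0.22 and fell by 0.27, and Tgfbr2 rose by 0.88 and 1.52. Tgfb1 rose by 0.83 after ISO and stood at -0.11 after LPS, not past the threshold. The differences between agents were -0.84 for Eng, -0.49 for Acvrl1, 0.64 for Tgfbr2 and -0.94 for Tgfb1, all past the threshold.

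The members were also compared by their shape over the 6 groups. Likeness was taken as the root-mean-square difference between group means on the log2 scale after centring, a description over 6 groups with no test, in which the prior count of 2 flattens genes of low count. Among the members, the smallest differences were those of Hp and Lrg1 (0.47) and of Saa1 and Steap4 (0.49). Within both pairs the fitted LPS changes given above lay well apart, so a small difference here does not mean an equal response. Lrg1 and Serpina3m differed by 0.69, Serpina3n and Serpina3m by 0.74, Hp and Serpina3m by 0.86 and Saa3 and Lcn2 by 0.92. Saa3 and Steap4 were far apart (3.75). Among 10580 other genes, the nearest to Lrg1 and to Hp was Serpina3i (0.16 and 0.42). The nearest to Serpina3n were Ankrd2, a stretch-responsive muscle gene (0.46), and Ptx3, the long pentraxin (0.55). Nearest to Serpina3m were Ptx3 (0.33) and Angptl4, an inhibitor of lipoprotein lipase (0.43). Nearest to Lcn2 were the long noncoding RNA gene 1200007C13Rik (0.75) and Ankrd2 (1.16), and nearest to Saa3 were 1200007C13Rik (1.59) and Serpina3f (1.85). Steap4 had close matches in Efna5 and Mocos (0.10 each).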

How the data were processed

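Poly-A RNA of 23 mouse hearts in 6 groups was used, grouped by the labels. Per the file headers, the authors deposited for each library estimated counts of reads per gene, TPM (already divided by effective length) and gene lengths, another quantity. The tools named in the submitters' processing notes are bcl2fastq, DRAGEN, edgeR and limma, with the mm10 build. Aligner settings, annotation and strandedness were not given in the sources used here. Of the nonzero deposited estimated counts 25.9% were not whole (tolerance 0.004 reads), and they were rounded. Of 55487 identifiers 55227 matched GENCODE M21, and unmatched ones took 0.00573% of a library's reads or less.

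Counts were tested with edgeR 4.0.16 in R 4.3.3 (TMM, filterByExpr with a minimum count of 10, glmQLFit and glmQLFTest, 1 model of 6 group means, two-sided, Benjamini-Hochberg over 15732 genes, called under 0.05). The standard error is the log2 change divided by the square root of F. For genes with few baseline reads it can understate the uncertainty, and it was far wider for the difference between agents in Saa3 and Saa1. The common biological coefficient of variation was 11.0%. The procedure was run on simulated counts in which only a small part of the genes changed, with the same spread for every gene. That run cannot show how the calls behave where most genes change, as on day 1, or where a baseline is near 0 reads. Intervals are exact 95% intervals of read ratios (scipy 1.17.1), and intervals and floors (3 reads over a group) cover counting error only.

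The members and gene lists were chosen with earlier results of these data known. Every member is named. From each list up to 4 genes could be named, the 2 with the smallest adjusted p at ISO day 1 and the 2 at LPS day 1 among genes of at least 1 CPM, and any gene of the Serpina3, STEAP and partner lists could be named. Genes of like pattern are the nearest 2 with at least 5 CPM in the highest group. Alternatives were other scalings, DESeq2 1.42.0, no filter, offsets by effective length, the compared groups alone, summed paralogs, a replicate block, limma 3.58.1 on log2(TPM + 0.1), leaving out each library and, added after the data were seen, comparing treated groups directly.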

Additional observations from a re-analysis of the deposited data

Results flagged for a closer look

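By the test of the difference, 5 members responded more to LPS than to ISO on day 1: Hp by 4.88, Lrg1 by 3.46, Lcn2 by 2.87, Serpina3n by 1.43 and Steap4 by 1.14 on the log2 scale. In all 4 LPS hearts each of these genes stood above all 3 ISO hearts.

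In 8 of 41 groups of 4 libraries, 1 heart stood apart from the other 3 by Dixon's criterion, which chance meets in about 1 group in 20 for continuous values. The case with substantial reads was Saa3 at 3.26 TPM (30 reads) in LPS baseline replicate 4. The other 7 are 1 or 2 reads in a group otherwise at 0, where any value above 0 meets the criterion and that chance rate does not apply: Saa1 at 0.087 TPM in ISO day 7 replicate 3 and 0.019 TPM in LPS baseline replicate 3, Saa2 at 0.115 TPM in LPS baseline replicate 2, Orm1 at 0.059 TPM in ISO baseline replicate 1, 0.121 TPM in ISO day 7 replicate 2 and 0.084 TPM in LPS day 7 replicate 1, and Serpina3m at 0.03 TPM in LPS baseline replicate 4.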

How the results depend on the processing

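For values called in the reported fits, 328 recomputed with another setting and 827 of 828 with a library left out kept direction and call, the exception being Saa1 at ISO day 1 (given above). The changes below concern values not called there, and the cause was not tested. At LPS day 7 the members called numbered 0, and 1 without the filter, 2 with the groups fitted alone, 1 on log2(TPM + 0.1), 1 with paralogs summed (the sum of the Serpina3 serpins other than Serpina3n, since Serpina3m itself had 0 reads there) and 0 to 1 with a library left out (1 without ISO day 1 replicate 2, ISO day 7 replicate 3 or LPS baseline replicate 4). For the difference between agents at day 1 they numbered 8 rather than 5 on log2(TPM + 0.1) and 8 with treated groups compared directly. Between baselines they numbered 1 without the filter (Lcn2), 1 with the groups alone (Steap4) and 0 to 1 with a library left out (Lcn2, 1.15, adjusted p = 0.0322, without LPS baseline replicate 3).

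Signs turned for small changes. At LPS day 7 that Serpina3 sum was at 1.85 (adjusted p = 0.0103), and Steap4 was at 0.15 with library totals and 0.20 on log2(TPM + 0.1), scalings that move the median of all genes to 0.16 and 0.20. For the difference between agents at day 7, Saa3 was at 0.05 with library totals, 0.29 with effective-length offsets, 1.39 on log2(TPM + 0.1) and 2.87 directly, Hp at 0.10 with library totals, Serpina3n at 0.08, 0.30 on log2(TPM + 0.1) and 0.18 directly, Lcn2 at 0.68 and Steap4 at 0.14 directly, and the Serpina3 sum at 1.63 with paralogs summed. Between baselines Hp was at 0.02 on log2(TPM + 0.1). With a library left out, Saa3 ranged from -1.42 to 0.84 at ISO day 7, from -0.12 to 2.61 at LPS day 7 and from -0.55 to 2.25 for the difference at day 7, Lrg1 from -0.13 to 0.02 at ISO day 7, Steap4 from -0.03 to 0.02 at LPS day 7, Hp from -0.47 to 0.70 and Serpina3n from -0.25 to 0.50 for the difference at day 7.

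No pairing of hearts by replicate number was visible: same-numbered libraries correlated at -0.12 to 0.08 in the ISO arm and -0.03 to 0.05 in the LPS arm, and 2 of 11 and 3 of 12 libraries correlated best with their own number. So few pairs cannot show that the numbers carry no shared handling. With a replicate block, the day 7 difference was 0.01 for Saa3, 0.06 for Hp and 0.03 for Serpina3n, and Lrg1 differed by -0.11 between baselines, with 0 members called in each. Depth limits Saa1, Saa2, Orm1 and Serpina3m, which held 0 to 1 read over a baseline group.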
